A study of Saccharomyces cerevisiae with 279 samples.

Results

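The transcripts of the translation initiation factors eIF2 and eIF2B were followed in budding yeast through heat, sodium azide, ethanol, DTT, cycloheximide and depletion of the initiation factors eIF3b or eIF4E. The 8 genes were taken by symbol from the gene attribute of the deposited annotation, and are 8 of the 5906 nuclear protein-coding transcripts quantified. eIF2 carries the initiator tRNA to the small ribosomal subunit as a complex with GTP, and leaves it bound to GDP. eIF2B is the exchange factor that reloads eIF2 with GTP. In starved or stressed cells the kinase Gcn2 phosphorylates the alpha subunit of eIF2, which then holds eIF2B, so that general initiation slows while GCN4, a transcription factor of amino acid synthesis, is translated more. Only the mRNAs were measured here. The phosphorylation and the proteins were not analysed.

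SUI2, SUI3 and GCD11 encode eIF2 alpha, the phosphorylated subunit, eIF2 beta, and eIF2 gamma, which binds GTP and the initiator tRNA. In the S. cerevisiae R64 build SUI2 (YJR007W) lies on chromosome X at 451020 to 451934 on the plus strand, SUI3 (YPL237W) on chromosome XVI at 100496 to 101353 on the plus strand and GCD11 (YER025W) on chromosome V at 205251 to 206834 on the plus strand. SUI3 overlaps the dubious open reading frame YPL238C on the other strand. The example counting commands in the paper set a strand for each group of libraries. GCD6 and GCD1 encode the epsilon and gamma subunits of eIF2B, of which epsilon catalyses the exchange. GCD6 (YDR211W) lies on chromosome IV at 884727 to 886865 on the plus strand, and GCD1 (YOR260W) on chromosome XV at 813984 to 815720 on the plus strand. GCN3, GCD7 and GCD2 encode the alpha, beta and delta subunits, which sense phosphorylated eIF2. GCN3 (YKR026C) lies on chromosome XI at 488738 to 489655, GCD7 (YLR291C) on chromosome XII at 718317 to 719462 and GCD2 (YGR083C) on chromosome VII at 644860 to 646815, all on the minus strand. The deposited transcript lengths run from 1008 bases for SUI3 and 1138 for SUI2 to 2127 for GCD2 and 2338 for GCD6.

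Stress was applied to BY4741, a haploid laboratory strain grown in synthetic complete dextrose at 30°C. The groups were heat at 42°C or 46°C for 10 min against 30°C, azide at 0.5% or 0.8% for 30 min at pH 6.8 against a water mock, ethanol at 5%, 7.5%, 10% or 15% for 15 min against a mock in normal medium, DTT at 10 mM for 15 min against its mock, and cycloheximide (CHX) given 10 min before 30°C or 46°C against mock. Azide blocks respiration, DTT reduces disulfides, and CHX stalls elongating ribosomes. The degron strains yJB042 (PRT1-AID*-3xflag+pZTRL) and yHG038 (CDC33-AID*-3xflag+pZTRL), 1 strain for each factor, carry an auxin degron on eIF3b or eIF4E and an OsTIR1 gene induced by β-estradiol at leu2, in a MATα ura3Δ0 his3Δ1 lys2Δ0 background grown in YPD. Depleted cells received β-estradiol and auxin and mock cells received DMSO in place of β-estradiol, so that depletion and inducer cannot be told apart. Both were then held at 30°C, 42°C or 46°C. Every group used here had 2 lysates. The paper states that its experiments had at least 2 biological replicates, each begun from growth. With 2 lysates in a group, p-values measure only the spread between these lysates.

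Sed-seq was run on 77 lysates and Polysome-seq on 14, with 279 libraries in all. Sed-seq centrifuges an EDTA-treated lysate and gives pSup, the fraction of an mRNA left in the supernatant, with mRNA in large assemblies going to the pellet. Polysome-seq parts a lysate on a sucrose gradient and gives Occ, the ribosome-bound fraction of an mRNA. Total RNA holds from 2222970 to 30761624 estimated mRNA counts in Sed-seq, and the members had 128 to 14830 counts in each Total library. No library was identical to another (0 found). The heat Sed-seq experiment stood apart in unstressed levels, with SUI3 (379 to 396 TPM), GCD7 (134 to 137), GCD6 (95.2 to 97.2) and GCN3 (78.5 to 80.2) above and GCD11 (129 to 139) below the range of all other unstressed BY4741 lysates, and its abundance was tested only within itself. Degron strains expressed MATα genes and MET17 with LYS2 near 0, and BY4741 the reverse, as their genotypes state. Other markers went against the listed genotypes. In the eIF3b strain the MATa gene MFA1 had a median of 391.9 TPM, beside 5854 in BY4741. HIS3 had medians of 65.13 to 99.98 TPM, although all strains are listed as his3Δ1. The hairpin reporter strains, listed as MATa met15Δ0, had medians of 196.9 TPM for the MATα gene STE3, 62.59 for MET17 and 0 for LYS2. These are bulk lysates, and abundance is relative to the other mRNAs of a library, so the amount of RNA per cell was not measured. In Polysome-seq signal scaled to added S. pombe RNA, fewer cells and less RNA per cell cannot be told apart.

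In unstressed BY4741 outside the heat experiment (n = 16 lysates), the eIF2 mRNAs were more abundant than the eIF2B mRNAs. In TPM rescaled to nuclear mRNA, SUI2 had a median of 278 (213.5 to 305.8), GCD11 217 (192.2 to 243.6) and SUI3 161 (140.8 to 211.1). GCD1 had a median of 106.3 (78.95 to 135.0), followed by GCD2 at 75.2 (60.004 to 85.88), GCD7 at 74.6 (64.38 to 83.28), GCD6 at 64.3 (50.58 to 80.47) and GCN3 at 57.1 (50.51 to 73.42). SUI3 and GCD1 were the only neighbours in this order whose ranges did not overlap. In pSup the order was another, with medians of 0.927 for SUI3, 0.919 for GCN3, 0.913 for SUI2, 0.908 for GCD7, 0.901 for GCD11, 0.883 for GCD2, 0.865 for GCD1 and 0.841 for GCD6.

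Levels are given as RPKM, reads scaled by open reading frame length and library size. The library size was scaled by TMM, which sets the typical mRNA to no change. By TMM the largest loss of these mRNAs in Sed-seq, by their median change, followed depletion of eIF3b. This is a scaffold subunit of the factor that joins the small ribosomal subunit to mRNA. By library totals without TMM the members' median log2 change on eIF3b depletion was 0.05, and the lowest was in 5% ethanol (-0.66). SUI3 had 104.8 and 87.1 RPKM in depleted cells, against 320.9 and 292.1 RPKM in mock cells. GCD11 had 150.3 and 141.3 RPKM in depleted cells, against 439.1 and 395.1 RPKM in mock cells. SUI2 had 213.6 and 202.6 RPKM in depleted cells, against 472.8 and 411.4 RPKM in mock cells. For each subunit of eIF2, both depleted lysates lay well below both mock lysates.

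The eIF2B mRNAs fell less on eIF3b depletion. GCD6 had 77.7 and 71.4 RPKM in depleted cells, against 134.6 and 133.7 RPKM in mock cells, and GCD7 had 100.3 and 92.2 RPKM in depleted cells, against 159.4 and 143.5 RPKM in mock cells. GCN3, for the one non-essential subunit of eIF2B, had 81.998 and 82.61 RPKM in depleted cells, against 100.0 and 93.8 RPKM in mock cells. In edgeR's quasi-likelihood test, with Benjamini-Hochberg adjustment over all mRNAs, all 8 passed as lower, but scaling by library totals without TMM reversed GCD1, GCD2, GCD6, GCD7 and GCN3 (0.10, 0.15, 0.01, 0.20 and 0.62 on the log2 scale). Of all mRNAs 38.7% were called lower. The log2 changes were -1.67 ± 0.10 for SUI3 (SE, adjusted p = 1.8e-08), -1.52 ± 0.10 for GCD11 (adjusted p = 2.9e-08), -1.09 ± 0.11 for SUI2 (adjusted p = 1.2e-06), -0.85 ± 0.08 for GCD6, -0.75 ± 0.08 for GCD1, -0.71 ± 0.08 for GCD2, -0.65 ± 0.08 for GCD7 and -0.24 ± 0.07 for GCN3 (adjusted p = 0.011). The members' median was -0.80, beside 0.06 for all mRNAs. Library totals moved the median of all mRNAs to 0.92, and there SUI3 (-0.81), GCD11 (-0.66) and SUI2 (-0.23) were still called lower while GCD7 and GCN3 were called higher, beside 16.6% of all mRNAs lower and 70.97% higher.

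**Figure D1:**
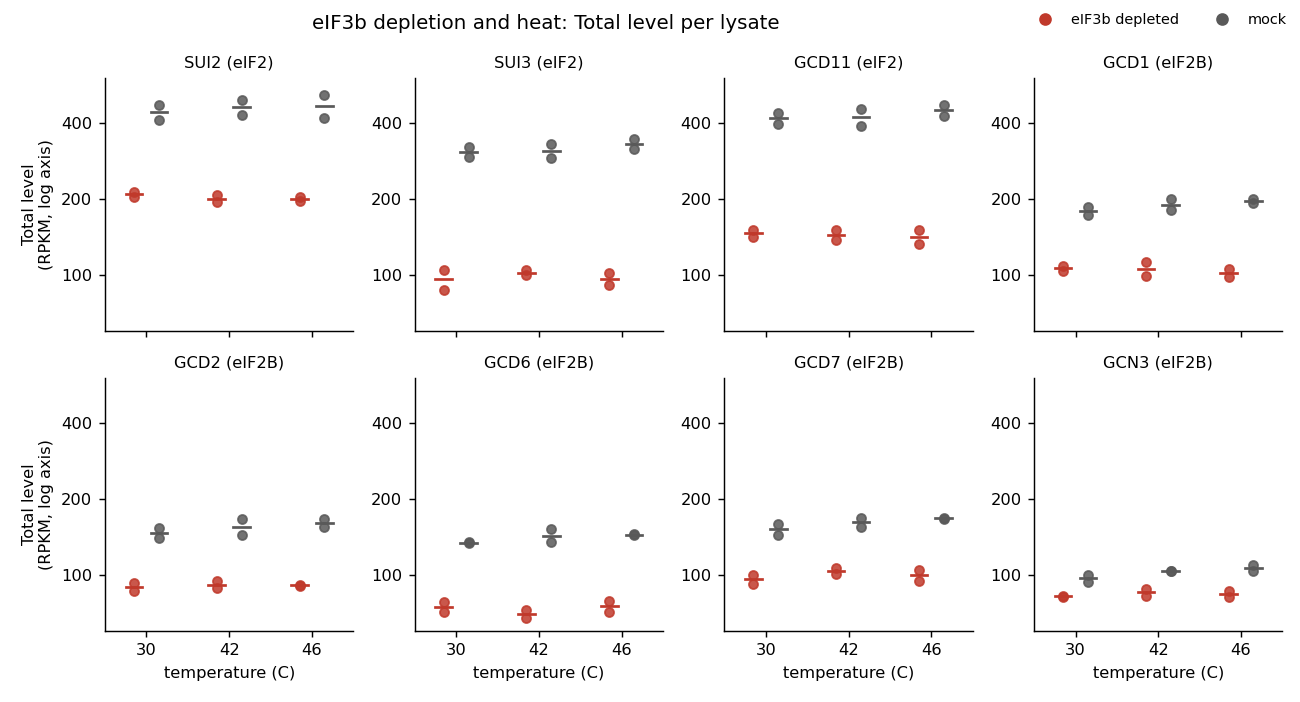
Total level of the 8 mRNAs in the eIF3b degron strain, in TMM-scaled RPKM on a log axis, at 30°C, 42°C and 46°C, with 1 point per lysate and a bar at the mean of 2. Depleted lysates sit below mock lysates in every panel, by most for SUI3 and GCD11 and by least for GCN3. By library totals only SUI2, SUI3 and GCD11 were lower at 30°C.

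Depletion of eIF4E, the cap-binding protein, lowered SUI3 and GCD11 most. SUI3 had 167.6 and 172.6 RPKM in depleted cells, against 258.1 and 252.7 RPKM in mock cells, a log2 change of -0.59 ± 0.06 (edgeR, adjusted p = 2.9e-06). GCD11 had 234.5 and 233.8 RPKM in depleted cells, against 345.0 and 349.1 RPKM in mock cells, a log2 change of -0.57 ± 0.05 (adjusted p = 9.1e-07). SUI2, whose mRNA had shared the fall on eIF3b depletion, had 320.9 and 327.1 RPKM in depleted cells, against 333.9 and 366.1 RPKM in mock cells, and did not pass (-0.11 ± 0.06, adjusted p = 0.15). GCD2 (-0.28) and GCD6 (-0.13) were lower and GCD1 (0.14) was higher, though GCD2 and GCD6 turned to 0.02 and 0.17 by library totals. By that scaling 2 members were called lower (SUI3 and GCD11) and 4 higher, beside 14.2% and 54.2% of all mRNAs. The 5 calls stand beside 59.9% of all mRNAs called in either direction, and became 3 whichever lysate was left out, in DESeq2 and in a fit of the groups compared alone.

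Under CHX at 30°C the eIF2 mRNAs again led the change. SUI3 had 139.1 and 134.4 RPKM in CHX, against 229.5 and 248.5 RPKM in mock, a log2 change of -0.80 ± 0.07 (edgeR, adjusted p = 1.1e-04). GCD11 had 227.4 and 206.2 RPKM in CHX, against 326.9 and 336.4 RPKM in mock, a log2 change of -0.61 ± 0.07. SUI2 had 265.6 and 271.9 RPKM in CHX, against 336.5 and 370.4 RPKM in mock, a log2 change of -0.39 ± 0.08. With GCD6 (-0.30) and GCD1 (-0.28), 5 of 8 were called lower beside 29.1% of all mRNAs, while GCD7 (-0.18), GCD2 (0.00) and GCN3 (0.16) did not pass. By library totals SUI3 (-0.27) was still called lower, GCD11 was at -0.08, SUI2 (0.14), GCD1 (0.25) and GCD6 (0.23) reversed, and 4 of 8 were called higher (GCD1, GCD2, GCD7 and GCN3), beside 64.5% of all mRNAs higher and 9.25% lower. With the 46°C lysates of the same experiment, CHX against mock gave the same 5 calls beside 28% of all mRNAs. The changes were -0.87 for SUI3, -0.71 for GCD11, -0.44 for SUI2, -0.42 for GCD1 and -0.39 for GCD6. The last 3 reversed by library totals (0.13, 0.15 and 0.17). By that scaling 1 of 8 was called lower and 3 higher, beside 7.87% and 65.4% of all mRNAs. With the replicate number as a block, which pairs lysates here, 6 were called, GCD7 being added at 30°C (-0.17 ± 0.07, adjusted p = 0.034) and GCD2 at 46°C (-0.21 ± 0.05, adjusted p = 0.0033). At 30°C the 5 calls became 3 without mock replicate 2 or CHX replicate 2.

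The response to ethanol changed sign with dose. GCD2, for the delta subunit, had 79.5 and 85.4 RPKM in mock, 45.3 and 45.6 RPKM in 5% ethanol and 113.9 and 108.5 RPKM in 10% ethanol. GCD6, for the catalytic subunit, had 67.7 and 69.7 RPKM in mock, 43.3 and 41.2 RPKM in 5% ethanol and 90.8 and 96.6 RPKM in 10% ethanol. GCD11 had 251.9 and 256.1 RPKM in mock, 153.5 and 145.6 RPKM in 5% ethanol and 302.6 and 310.3 RPKM in 10% ethanol. For these 3 genes the groups did not overlap, and mock lay between the 2 doses.

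At 5% ethanol all 8 mRNAs were lower than in mock by both scalings, beside 39% of all mRNAs by TMM and 45.2% by library totals. The log2 changes ran from -0.86 ± 0.06 for GCD2 (edgeR, adjusted p = 5.5e-08), -0.76 ± 0.05 for GCD11 and -0.70 ± 0.06 for GCD6 through -0.59 for GCD1, -0.51 for GCN3 and -0.30 for SUI2 to -0.23 for GCD7 and -0.20 ± 0.06 for SUI3 (adjusted p = 0.0094). SUI3, which fell most in depleted and CHX-treated cells, fell least here, at 150.4 and 136.9 RPKM in 5% ethanol against 163.9 and 166.2 RPKM in mock. At 10% ethanol all 8 were higher than in mock, beside 26.9% of all mRNAs, from 0.21 ± 0.06 for SUI3 to 0.46 ± 0.08 for GCN3. By library totals 5 of 8 were higher, beside 15.8% of all mRNAs. Set directly against 5%, 10% ethanol had all 8 higher by both scalings, beside 39.2% of all mRNAs by TMM and 37.3% by library totals. By TMM the changes ran from 0.41 ± 0.06 for SUI3 to 1.29 ± 0.06 for GCD2 (edgeR, adjusted p = 8.0e-10). The members' medians were -0.55 at 5% and 0.33 at 10%, beside -0.03 and -0.02 for all mRNAs.

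At 7.5% ethanol, in an experiment of its own, the members were called in both directions by TMM but only as lower by library totals. SUI3 had 199.6 and 174.9 RPKM in 7.5% ethanol, against 147.4 and 144.1 RPKM in mock (0.36 ± 0.08), and SUI2 had 387.7 and 355.8 RPKM in 7.5% ethanol, against 290.7 and 303.7 RPKM in mock (0.32 ± 0.07). GCD11 had 203.0 and 192.8 RPKM in 7.5% ethanol, against 231.6 and 237.1 RPKM in mock (-0.24 ± 0.06), and GCD6 fell by a like amount (-0.23). These 4 were called in edgeR, beside 58.6% of all mRNAs. The rises of SUI2 and SUI3 shrank to 0.04 and 0.08 by library totals, where neither passed and 5 of 8 were called lower (GCD11, GCD6, GCD2, GCD1 and GCN3) beside 52.2% of all mRNAs, and without mock replicate 2 the count of calls was 2. In the Total RNA of the Polysome-seq experiment at 7.5% ethanol, GCD11 had 201.4 and 212.7 RPKM in ethanol, against 295.6 and 324.2 RPKM in mock (-0.58 ± 0.07). There GCD1 (-0.46), GCD6 (-0.43) and GCD2 (-0.41) were lower too, 4 of 8 beside 29.4% of all mRNAs, while SUI2 (-0.07) and SUI3 (0.06) did not pass. By library totals 7 of 8 were lower, beside 41.9% of all mRNAs. At 15% ethanol 0 of 8 were called by edgeR or DESeq2, with 0 at an unadjusted p under 0.05, beside 23.2% of all mRNAs in either direction. By library totals 2 of 8 were lower at 15%, beside 19.2% of all mRNAs.

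**Figure D2:**
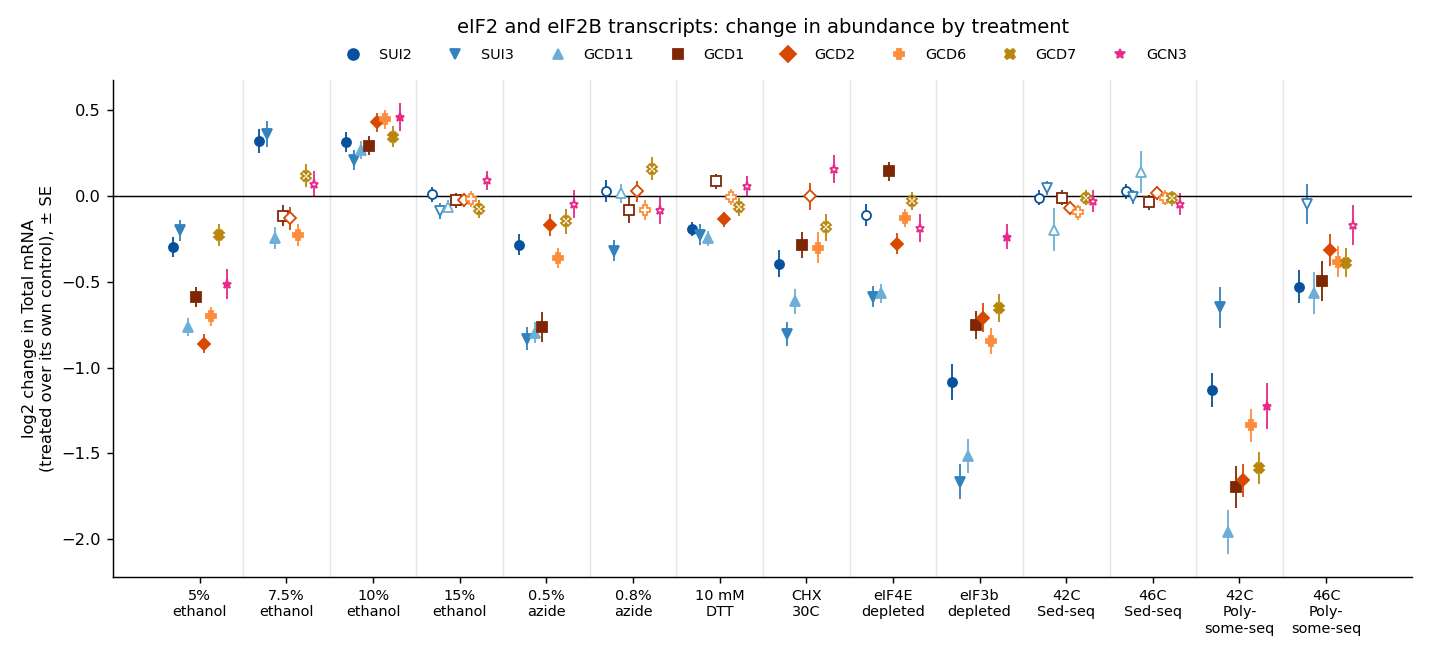
Log2 change of each mRNA in Total RNA, treated over its own control, with bars of 1 SE from edgeR and filled markers where the adjusted p is under 0.05. The 8 mRNAs lie below 0 at 5% ethanol and above 0 at 10%, spread most under eIF3b depletion and 42°C in Polysome-seq, and lie near 0 in Sed-seq heat. TMM scaling is shown, and library totals lift all points of the eIF3b column by a like amount, which puts 5 of them above 0.

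In 0.5% azide the falls were unequal across both complexes. SUI3 had 114.3 and 118.4 RPKM in azide, against 212.8 and 201.1 RPKM in mock (-0.83 ± 0.07). GCD11 had 168.2 and 180.8 RPKM in azide, against 306.9 and 298.9 RPKM in mock (-0.80 ± 0.06). GCD1, for eIF2B gamma, had 78.98 and 96.1 RPKM in azide, against 152.2 and 145.1 RPKM in mock (-0.76 ± 0.09). These 3 were lower by library totals too. GCD6 (-0.36), SUI2 (-0.28) and GCD2 (-0.17) were also called lower, 6 of 8 beside 34.5% of all mRNAs, but were at 0.02, 0.10 and 0.21 by library totals, where 3 were called lower (SUI3, GCD11 and GCD1) and 3 higher (GCD2, GCD7 and GCN3), beside 17.8% of all mRNAs lower and 58.9% higher. GCN3 had 68.1 and 66.9 RPKM in azide, against 66.8 and 72.4 RPKM in mock, and its lysates overlapped.

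In 0.8% azide, a separate experiment, only SUI3 was called, at 151.8 and 151.2 RPKM in azide against 195.6 and 182.5 RPKM in mock (-0.32 ± 0.06, edgeR, adjusted p = 0.0065), 1 of 8 beside 19.1% of all mRNAs. Without mock replicate 1 it was 0 of 8. In the Polysome-seq experiment at the same dose SUI3 had 179.3 and 179.9 RPKM in azide, against 188.6 and 182.2 RPKM in mock, and did not pass (-0.05 ± 0.04, adjusted p = 0.39). There GCD7 alone was called, as higher (0.13 ± 0.04, adjusted p = 0.027), beside 23.2% of all mRNAs, and leaving out any lysate gave 0 calls. Under DTT the 3 eIF2 mRNAs and GCD2 were called lower, 4 of 8 beside 26.7% of all mRNAs, with GCD11 at 261.9 and 269.2 RPKM in DTT against 311.8 and 318.6 RPKM in mock (-0.25 ± 0.04). SUI3 (-0.22), SUI2 (-0.19) and GCD2 (-0.14) followed, and by library totals none of the 4 was called lower, GCD2 was at 0.02, and GCD1, GCD6 and GCN3 were called higher (3 of 8, beside 43.8% of all mRNAs). Without mock replicate 2 there were 2 calls.

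Heat gave small changes in Sed-seq and large ones in Polysome-seq. In the Sed-seq heat experiment the log2 changes lay between -0.20 and 0.05 at 42°C and between -0.04 and 0.14 at 46°C. At both temperatures 0 of 8 were called by edgeR or DESeq2, with 0 at an unadjusted p under 0.05, beside 7.23% and 0.44% of all mRNAs. At 46°C the count was 1 without 46°C replicate 1. Over 10 more heat comparisons in the CHX and degron experiments, 0 of 80 tests of members passed in edgeR or DESeq2 and 3 had an unadjusted p under 0.05, with changes between -0.09 and 0.21. Of all mRNAs 0.143% were called at 46°C in CHX and 1.02% in its mock. In the eIF3b strain 1.24% were called at 42°C and 0.837% at 46°C when depleted, and 0.976% and 1.38% in mock. In the eIF4E strain 4.21% and 6.69% were called when depleted, and 2.05% and 3.3% in mock. In the experiment with an S. pombe spike-in, 3 of 8 were higher at 46°C beside 13.8% of all mRNAs. GCD2 had 104.98 and 104.85 RPKM at 46°C, against 92.9 and 91.7 RPKM at 30°C (0.19 ± 0.04), GCN3 rose by a like amount (0.19) and SUI3 by less (0.12). Without either 46°C lysate there was 1 call.

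In the Total RNA of Polysome-seq, GCD11 had 276.2 and 264.9 RPKM at 30°C, 69.1 and 70.1 RPKM at 42°C and 204.8 and 161.1 RPKM at 46°C. GCD2 had 108.7 and 105.6 RPKM at 30°C, 32.85 and 35.04 RPKM at 42°C and 90.6 and 81.9 RPKM at 46°C. SUI3 had 184.4 and 180.6 RPKM at 30°C, 101.4 and 131.5 RPKM at 42°C and 180.3 and 173.3 RPKM at 46°C. Lysates at 42°C were thus lowest, and those at 46°C nearer to 30°C. At 42°C all 8 were called lower by both scalings, beside 34.4% of all mRNAs by TMM and 56.9% by library totals. By TMM the largest falls were -1.96 ± 0.13 for GCD11 (edgeR, adjusted p = 1.3e-06), -1.70 for GCD1, -1.66 for GCD2 and -1.59 for GCD7. The smallest was -0.65 ± 0.12 for SUI3 (edgeR, adjusted p = 9.6e-04). The members' median was -1.46, beside 0.06 for all mRNAs. At 46°C 6 were called lower beside 18%, from -0.57 ± 0.12 for GCD11 and -0.53 for SUI2 to -0.31 for GCD2, while SUI3 (-0.05) and GCN3 (-0.17) did not pass. Those 6 became 1 without the 30°C replicate 1, 2 without the 30°C replicate 2 and 3 without the 46°C replicate 2. The handling differed: for Sed-seq pelleted cells were heated in a water bath, and for Polysome-seq cells were filtered into warm medium and shaken. Its part in the difference was not tested.

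In heat, all 8 mRNAs left the supernatant together with nearly all other mRNAs. SUI3 had a pSup of 0.952 and 0.938 at 30°C, 0.718 and 0.713 at 42°C and 0.276 and 0.324 at 46°C. GCD11 had 0.920 and 0.913 at 30°C, 0.667 and 0.658 at 42°C and 0.325 and 0.254 at 46°C. GCD6, the longest of the 8, had 0.818 and 0.840 at 30°C, 0.511 and 0.509 at 42°C and 0.152 and 0.168 at 46°C. For the median mRNA pSup was 0.882 and 0.882 at 30°C, 0.577 and 0.570 at 42°C and 0.198 and 0.214 at 46°C, so that GCD6 and GCD1 lay below the median at both heat temperatures and SUI2, SUI3, GCD11, GCD7 and GCN3 above it. With limma on the natural-log odds of pSup, 8 of 8 were lower at both temperatures beside 99.7% and 100% of all mRNAs. The members' median changes were -1.74 at 42°C and -3.48 at 46°C, beside -1.67 and -3.31.

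In 15% ethanol SUI3 had a pSup of 0.603 and 0.568, against 0.960 and 0.950 in mock, and GCD1 had 0.261 and 0.247 in ethanol, against 0.915 and 0.906 in mock. All 8 were lower, as were 100% of all mRNAs, and likewise at 10% ethanol beside 97.3%. At 7.5% ethanol 3 of 8 were lower (GCD11, GCD1 and GCD6) beside 51%, with a median change of -0.23 against -0.45 for all mRNAs, and none without ethanol replicate 2 (0 of 8). In 0.8% azide all 8 were lower beside 81.9%, with SUI3 at 0.673 and 0.618 in azide against 0.888 and 0.891 in mock, and a median change of -1.08 beside -0.81 for all mRNAs. In 0.5% azide 7 were lower, GCD2 not among them, beside 67.3%. None passed in 5% ethanol, DTT, CHX at 30°C or eIF4E depletion at 30°C (limma, 0 of 8 in each, with 0, 0, 7 and 2 at an unadjusted p under 0.05), beside 1.52%, 0.237%, 0% and 0.0405% of all mRNAs. A fit of the groups compared alone called 7 of 8 on eIF4E depletion. At 46°C, CHX-treated cells kept more of 7 of the 8 in the supernatant than mock cells did, GCN3 excepted, beside 67.7%, which became 4 of 8 without CHX replicate 2 at 46°C. In 0.8% azide the count was 4 without mock replicate 1 and 5 without mock replicate 2, and in DTT it was 1 without mock replicate 2.

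**Figure D3:**
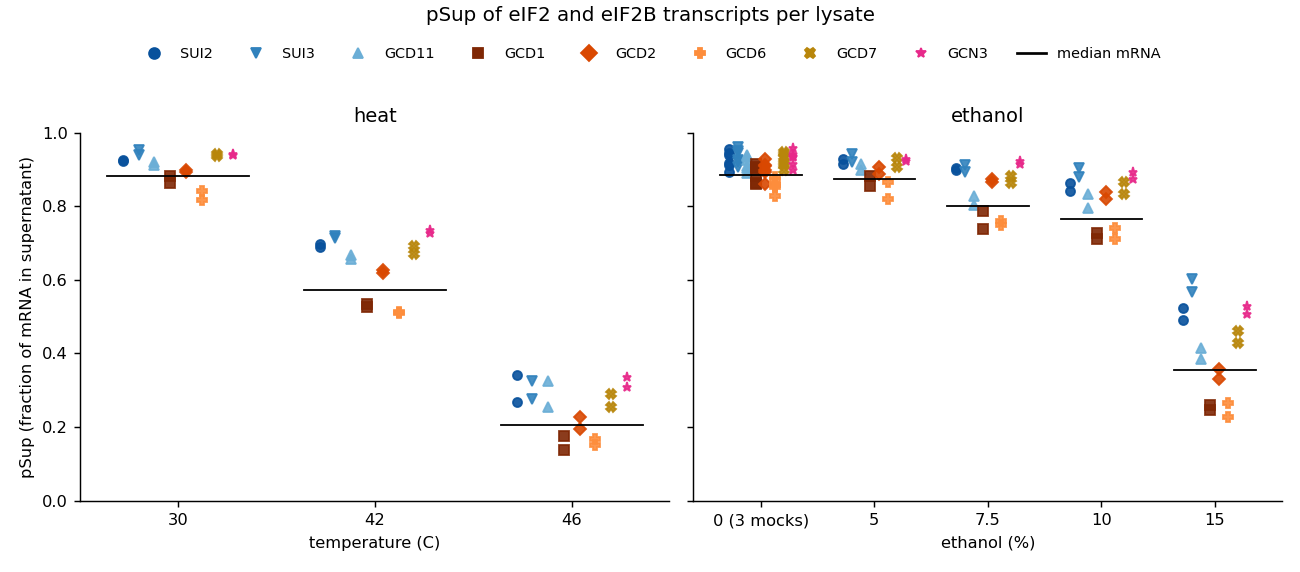
pSup of each mRNA, 1 marker per lysate, by temperature in the heat experiment and by ethanol dose over 3 experiments whose mocks are drawn together at 0, with the median mRNA as a line. All 8 are lower in heat and at 10% and 15% ethanol, and GCD1 and GCD6 lie under the median at 42°C, at 46°C and at 15% ethanol.

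Since long mRNAs sediment faster, the log odds of pSup were also centred on mRNAs of like length in the same lysate, so that 0 means typical for the length. In unstressed BY4741 (n = 18 lysates, 2 of them of the heat experiment) the members' medians were all above 0 on this scale. GCD2 and GCD11 stood at median percentiles of 96.62 and 96.01 among all mRNAs and at centred values of 0.56 and 0.53. GCD7 followed at 86.4, GCN3 at 83.8, SUI3 at 83.3, SUI2 at 73.1, GCD1 at 72.4 and GCD6 at 62.7. Of these, GCD11 was never below the percentile of 86.9 in any of the 18 lysates, and GCD6 ranged from 41.4 to 84.5.

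Length-centred pSup of SUI3, GCD1 and GCD7 was lower at 46°C than at 30°C in each of 5 experiments with unstressed or mock cells. In each, both lysates at 46°C lay below both at 30°C, with no overlap. Overlap was counted for the members only, so how often all mRNAs show such a pattern is not known. With 2 lysates in a group, such separation can arise from the spread between lysates. SUI3 was at -0.17 and -0.12 at 46°C in the spike-in experiment, against 0.36 and 0.37 at 30°C (-0.50 ± 0.07, limma, adjusted p = 0.0078). In the eIF3b mock it was at 0.00 and 0.20 at 46°C, against 0.50 and 0.55 at 30°C (-0.43 ± 0.09, adjusted p = 0.011). In the eIF4E mock it was at 0.03 and 0.16 at 46°C, against 0.41 at 30°C in both (-0.32 ± 0.05, adjusted p = 0.0047). Over the 5 experiments SUI3 lay between -0.17 and 0.20 at 46°C, around the typical value for its length, against 0.31 to 0.55 at 30°C, above it.

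GCD7 was at 0.13 and 0.20 at 46°C in the heat experiment, against 0.50 and 0.56 at 30°C (-0.36 ± 0.07, limma, adjusted p = 0.042). GCD1 was at -0.20 and -0.14 at 46°C in the CHX mock, against 0.17 and 0.55 at 30°C (-0.53 ± 0.13, adjusted p = 0.045). GCD11 was called lower in the eIF3b mock (-0.33) and the eIF4E mock (-0.23) and overlapped in the spike-in and heat experiments. GCD2 and GCD6 each lay lower at 46°C without overlap in 4 of 5 experiments, and GCD2 lay higher in the other. Neither was called, and for all mRNAs such overlaps were not counted. SUI2 and GCN3 differed in direction or overlapped between experiments, and neither was called. At 46°C the calls were 1 of 8 in the heat experiment beside 4.93% of all mRNAs called lower, 3 in the spike-in experiment beside 12.9%, 1 in the CHX mock beside 3.33%, 4 in the eIF3b mock beside 9.09% and 2 in the eIF4E mock beside 9.4%, all as lower. At 42°C they were 0 in the heat experiment (1 at an unadjusted p under 0.05) beside 0.922%, 2 in the eIF3b mock (SUI3 and GCD7) beside 4.77% and 1 in the eIF4E mock (SUI3) beside 5.08%. The calls are weak. With any lysate left out the count at 46°C was 0 in the heat experiment and in the CHX mock, except that it was 2 in each without 30°C replicate 2. Without either 46°C lysate the spike-in experiment gave 1. Without 30°C replicate 2 the eIF3b mock gave 2 at 46°C, and at 42°C it gave 0 without either replicate 1 and 1 without either replicate 2. In the eIF4E mock the count was 1 at 46°C without 30°C replicate 1 or either 46°C lysate, and 0 at 42°C whichever lysate was left out. Fitting only the groups compared gave 0 in the heat experiment, the CHX mock and both degron mocks.

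Chemical stress also changed members on the length-centred scale. In 7.5% ethanol GCD2 was at 0.94 and 1.05, against 0.38 and 0.49 in mock (0.56 ± 0.08, limma, adjusted p = 0.0040), GCN3 was at 0.66 and 0.70, against 0.18 and 0.19 in mock (0.50 ± 0.06), and SUI2 rose too (0.31), 3 of 8 beside 23.8% called higher. At 10% none passed (limma, 0 of 8, with 2 at an unadjusted p under 0.05) beside 11.4%. In 15% ethanol GCD1 was at -0.36 and -0.34, against 0.19 and 0.28 in mock (-0.58 ± 0.07, adjusted p = 0.0033), and with GCD2 (-0.27), GCD11 (-0.21) and GCD7 (-0.20) 4 of 8 were lower beside 19.2%, or 1 without either mock lysate and 2 without ethanol replicate 2. GCD2 thus rose at 7.5% and fell at 15%.

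In 0.5% azide GCD11 was at 0.07 and 0.19, against 0.66 and 0.67 in mock (-0.53 ± 0.06, limma, adjusted p = 0.015), and GCD6 (-0.32) and GCD1 (-0.23) were lower, 3 of 8 beside 14.2%. In 0.8% azide SUI3 was at -0.26 and -0.16, against 0.28 and 0.40 in mock (-0.55 ± 0.10), and GCD11 at 0.15 and 0.10, against 0.51 and 0.66 in mock (-0.46 ± 0.11), 2 of 8 beside 5.96%. GCD11 was called at both doses. With any lysate left out the 3 calls at 0.5% became 0, and the 2 at 0.8% became 0 without mock replicate 2 and 1 without azide replicate 1.

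Depletion of eIF3b sent these mRNAs to the pellet at 30°C without heat. GCD6 had a pSup of 0.573 and 0.495 in depleted cells, against 0.823 and 0.806 in mock cells. GCD11 had 0.672 and 0.607 in depleted cells, against 0.887 and 0.866 in mock cells. SUI3 had 0.776 and 0.656 in depleted cells, against 0.914 and 0.899 in mock cells. The median mRNA had 0.643 and 0.566 in depleted cells, against 0.816 and 0.777 in mock cells. All 8 were called lower beside 92.4% of all mRNAs, with a median change in log odds of -1.29 beside -0.97.

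After length centring, 7 of 8 were still lower in eIF3b-depleted cells, beside 21% of all mRNAs called lower. GCD11 was at 0.25 and 0.26 in depleted cells, against 0.74 and 0.80 in mock cells (-0.52 ± 0.06, limma, adjusted p = 2.5e-04). GCD6 was at 0.03 and -0.06 in depleted cells, against 0.40 and 0.52 in mock cells (-0.47 ± 0.10), and GCN3 at 0.00 and -0.02 in depleted cells, against 0.45 and 0.38 in mock cells (-0.42 ± 0.08). GCD6 and GCN3 thus came to the typical value for their length, while GCD11 stayed above it. GCD2 (-0.38), GCD1 (-0.32), SUI3 (-0.30) and SUI2 (-0.22) were lower as well, and GCD7 alone did not pass. The members' median was -0.35, beside -0.01 for all mRNAs, and the count was 3 without mock replicate 2 at 30°C. On eIF4E depletion GCD11 was at 0.42 and 0.31 in depleted cells, against 0.75 and 0.61 in mock cells (-0.32 ± 0.06, adjusted p = 0.015), and GCN3 was lower too (-0.25), 2 of 8 beside 5.93%, or 1 without mock replicate 2 and 0 without any other lysate.

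On the length-centred scale GCD11 then moved in opposite directions in heat with and without eIF3b. In depleted cells GCD11 was at 0.66 and 0.71 at 42°C and at 0.67 and 0.64 at 46°C, against 0.25 and 0.26 at 30°C (0.43 ± 0.06 and 0.40 ± 0.06). In mock cells it was at 0.64 and 0.62 at 42°C and at 0.50 and 0.38 at 46°C, against 0.74 and 0.80 at 30°C, and was called lower at 46°C (-0.33 ± 0.06). On this scale the interaction of depletion and heat was 0.57 ± 0.08 at 42°C (limma, adjusted p = 0.0035) and 0.73 ± 0.08 at 46°C (adjusted p = 3.1e-04). Without centring, pSup of all 8 mRNAs, GCD11 included, fell in heat in depleted and in mock cells. On the log odds of pSup the interaction called 0 of 8 at 42°C, beside 0.362% of all mRNAs in either direction. At 46°C it called 1 of 8, an eIF2B mRNA, as lower, beside 33.2%, and no eIF2 mRNA passed.

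Length-centred, GCD7 was at 0.42 and 0.34 at 42°C in depleted cells, against 0.34 and 0.27 at 30°C. In mock cells it was at 0.10 and 0.18 at 42°C, against 0.51 and 0.44 at 30°C. Its interaction was 0.42 ± 0.09 at 42°C (limma, adjusted p = 0.013) and 0.38 ± 0.09 at 46°C (adjusted p = 0.011). SUI2 was at -0.27 in both depleted lysates at 46°C, against -0.03 and 0.12 at 30°C, and was at 0.20 and 0.33 in mock cells at 46°C, against 0.29 and 0.24 at 30°C, with an interaction of -0.32 ± 0.10 (adjusted p = 0.040). These are 2 of 8 interactions at 42°C beside 19.3% of all mRNAs and 3 of 8 at 46°C beside 31.5%. At 42°C the count was 1 without depleted replicate 1 at 42°C or depleted replicate 2 at 30°C.

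In eIF3b-depleted cells alone, heat changed 4 of 8 on this scale at 42°C, beside 40.5% in either direction, and 5 of 8 at 46°C, beside 53.1%. At both temperatures GCD11 was higher and SUI2 (-0.23 and -0.32), GCD1 (-0.22 and -0.35) and GCD6 (-0.36 at both) were lower, and at 46°C SUI3 was lower as well (-0.47). At 42°C the count was 2 without replicate 1 and 1 without replicate 2, of 30°C or of 42°C. In eIF4E-depleted cells SUI3 (-0.19) and GCD7 (-0.34) were lower and GCN3 (0.25) higher at 42°C, 3 of 8 beside 28.1%, and SUI3 (-0.28), GCD1 (-0.29) and GCD7 (-0.41) were lower at 46°C, 3 of 8 beside 15.5% called lower. At 42°C the count was 1 without replicate 1 of 30°C or of 42°C. No interaction of eIF4E depletion and heat passed (limma, 0 of 8 at each temperature, with 3 at an unadjusted p under 0.05 at each), beside 0.0405% at 42°C and 2.13% at 46°C.

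**Figure D4:**
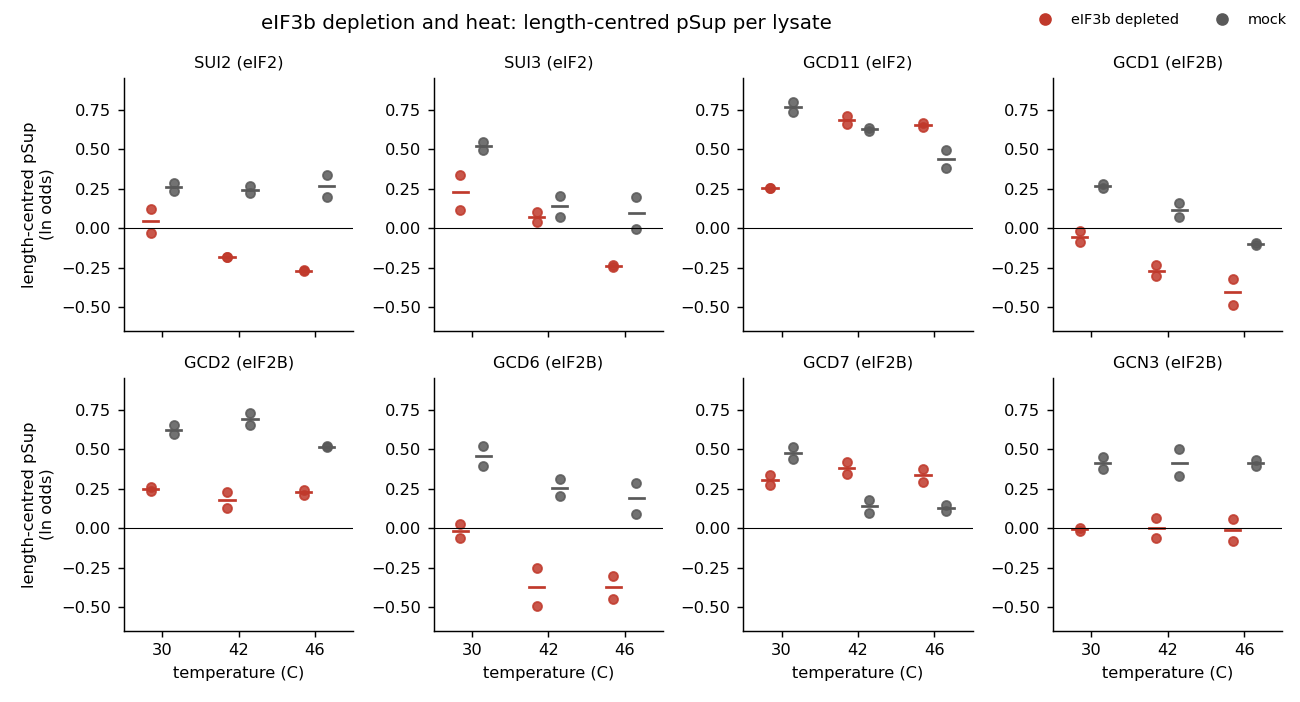
Length-centred pSup (natural-log odds, 0 being typical for the length) in the eIF3b degron strain at 30°C, 42°C and 46°C, 1 point per lysate with a bar at the mean of 2. Heated depleted lysates of GCD11 and GCD7 lie level with or above the heated mock lysates, and those of SUI2, GCD1, GCD2, GCD6 and GCN3 lie below them.

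In unstressed cells the 8 mRNAs were largely ribosome-bound. The paper holds that in stressed samples condensed mRNA may pellet in the gradient, which makes absolute occupancy hard to calculate. For stress it uses ribosome association instead, so that Occ in stressed lysates is given here as values without a test. In azide, SUI2 had an Occ of 0.500 and 0.508, against 0.924 and 0.889 in mock. GCD7 had 0.566 and 0.573 in azide, against 0.930 and 0.901 in mock. GCD6 had 0.896 and 0.882 in azide, against 0.929 and 0.907 in mock. The median mRNA had 0.768 and 0.758 in azide, against 0.871 and 0.849 in mock, so that SUI2 and GCD7 lay far under it and GCD6 above it. Ribosome association, the bound signal over Total RNA relative to other mRNAs, was tested in edgeR as the interaction of fraction and treatment. In 0.8% azide 0 of 8 passed in edgeR or DESeq2, with 4 at an unadjusted p under 0.05, beside 16.2% of all mRNAs, at log2 changes from -0.20 for GCD7 (adjusted p = 0.054) to 0.11 for GCD2, and 2 passed with the replicate number as a block. SUI2, lowest of the 8 in Occ in azide, was at -0.17 in association (edgeR, adjusted p = 0.066).

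In 7.5% ethanol the loss of occupancy was small except in GCD11 and GCD7. GCD11 had an Occ of 0.778 and 0.817 in ethanol, against 0.964 and 0.965 in mock, and GCD7 had 0.822 and 0.868 in ethanol, against 0.950 and 0.954 in mock. GCD2 had 0.950 and 0.963 in ethanol, against 0.949 and 0.947 in mock. The median mRNA had 0.863 and 0.882 in ethanol, against 0.918 and 0.914 in mock. GCD11 and GCD7 therefore fell below the median mRNA and GCD2 stayed above it. In ribosome association 0 of 8 passed in edgeR or DESeq2, with 2 at an unadjusted p under 0.05, beside 1.91% of all mRNAs.

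Heat separated the members by subunit in Polysome-seq, where Poly holds mRNAs with 3 or more ribosomes and Mono those with 1 or 2. SUI3 had an Occ of 0.923 and 0.940 at 30°C, 0.717 and 0.742 at 42°C and 0.872 and 0.841 at 46°C. Its Poly share was 75.7% and 78.9% at 30°C, 43.9% and 47.1% at 42°C and 70.98% and 70.30% at 46°C. Its Mono share was 16.6% and 15.1% at 30°C, 27.8% and 27.2% at 42°C and 16.3% and 13.8% at 46°C. In spike-in-scaled signal, SUI3 Poly was 488.2 and 796.7 at 42°C, against 5898 and 6395 at 30°C, Mono was 309.3 and 460.0 at 42°C, against 1293 and 1223 at 30°C, and Free was 315.3 and 436.2 at 42°C, against 598.1 and 486.2 at 30°C. SUI3 signal at 42°C was thus lower in every fraction and most so in Poly, so that Poly held a smaller share of what was left. Its association in Poly fell by 1.00 ± 0.22 on the log2 scale (edgeR, adjusted p = 0.011), 1 of 8 called lower beside 10.3% of all mRNAs. It did not pass without 30°C replicate 1, 30°C replicate 2 or 42°C replicate 2, nor with Mono counted as bound. By library totals 4 of 8 were lower, beside 30.6% of all mRNAs.

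At 46°C GCD11 had an Occ of 0.681 and 0.664, against 0.898 and 0.913 at 30°C, and GCD7 had 0.661 and 0.682, against 0.904 and 0.906 at 30°C. GCD2 had 0.911 and 0.928 at 46°C, against 0.859 and 0.880 at 30°C, and GCN3 had 0.956 and 0.955 at 46°C, against 0.939 and 0.946 at 30°C. The median mRNA had 0.842 and 0.855 at 46°C, against 0.836 and 0.849 at 30°C. Among the subunits that sense phosphorylated eIF2, GCD7 therefore went one way and GCD2 and GCN3 the other. In association GCD11 (-1.12 ± 0.19, edgeR, adjusted p = 5.4e-04), GCD7 (-1.06 ± 0.12, adjusted p = 1.3e-04), GCD1 (-0.74 ± 0.17) and GCD6 (-0.72 ± 0.14) were lower by both scalings. GCD2 (0.55 ± 0.21, edgeR, adjusted p = 0.046) and GCN3 (0.73 ± 0.18, adjusted p = 0.0050) were higher by TMM and were not called by library totals (0.07 and 0.26). By library totals 40.4% of all mRNAs were called lower and 10.2% higher. The 6 calls stand beside 54.2% of all mRNAs in either direction, and fell to 3 without 30°C replicate 1. In azide, 7.5% ethanol and 46°C alike, GCD11 and GCD7 were among the 3 lowest of the 8 in Occ. At 42°C GCD7 was not. Its Free share there was 22.55% and 15.3%, below that of GCD11 (31.01% and 25.15%), SUI3 (28.34% and 25.77%), GCD1 and GCD6 in both lysates. In association at 42°C GCD7 was at 0.13 and was not called.

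**Figure D5:**
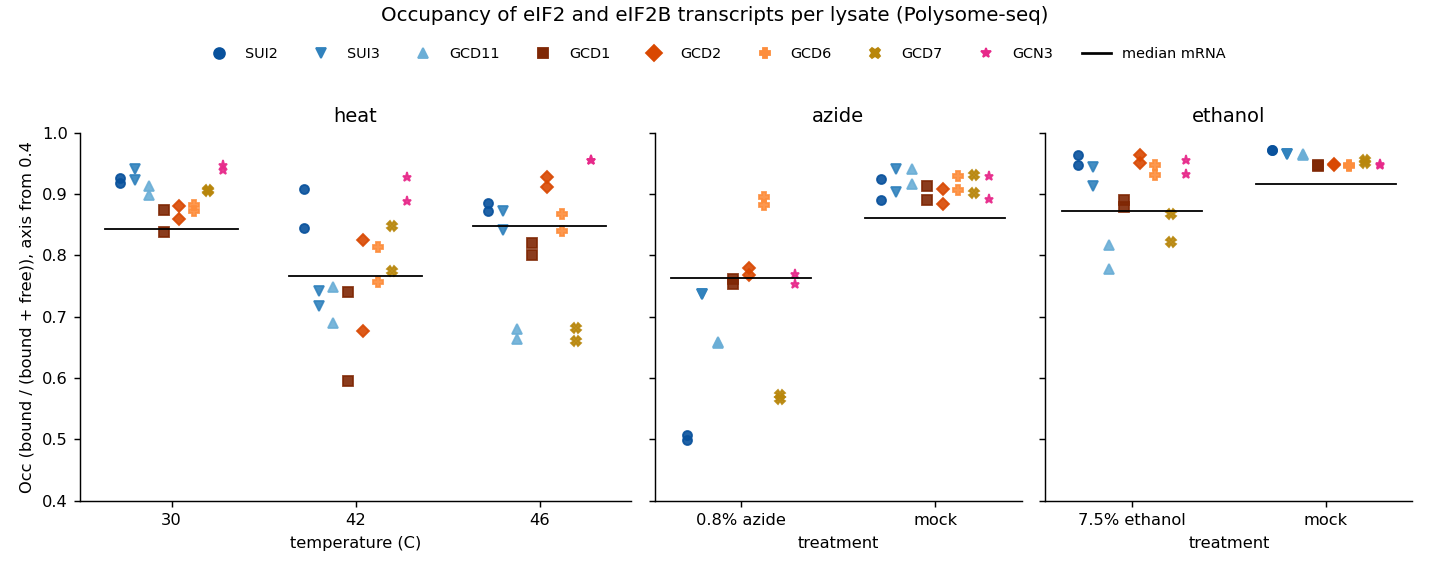
Occ of each mRNA, 1 marker per lysate, in the 3 Polysome-seq experiments, on an axis that starts at 0.4, with the median mRNA as a line. GCD11 and GCD7 lie under the median at 46°C, in azide and in ethanol, and SUI2 is lowest in azide. GCD1 also lies under the median at 46°C and in azide, and SUI3 in azide. In stressed lysates condensed mRNA may pellet in the gradient, which limits what Occ shows there.

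A list of 14 further genes of the pathway, among them the kinase GCN2 with its activator GCN1, the transcription factor GCN4 and the initiation factors SUI1 (eIF1), TIF11 (eIF1A), TIF5 (eIF5) and FUN12 (eIF5B), was read the same way. On eIF3b depletion 11 of 14 were lower and 2 higher in Total RNA, led by TIF11 (-1.89) and FUN12 (-1.82), beside 38.7% and 41.8% of all mRNAs, though by library totals 5 were lower and 4 higher beside 16.6% and 70.97%. In 5% ethanol 10 were lower and 1 higher by either scaling, beside 39% and 33.8% of all mRNAs by TMM and 45.2% and 27.4% by library totals. In ribosome association at 46°C, GCN4, whose translation phosphorylated eIF2 favours, was higher by 1.21 ± 0.16 on the log2 scale (edgeR, adjusted p = 1.7e-04) and SUI1 by 1.47 ± 0.15, while GCN2 was lower by 0.74 on that scale (-0.74 ± 0.14). By library totals these 3 kept their sign (0.74, 1.00 and -1.20), and the 14 genes gave 7 higher and 1 lower by TMM, beside 31.1% and 23.1% of all mRNAs, and 4 and 4 by library totals, beside 10.2% and 40.4%. GCN4 was higher at 42°C too (0.98 ± 0.16) and in azide (0.35 ± 0.07).

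The mRNAs most like the members' mean profile over the Total RNA of 77 Sed-seq libraries were GIN4 (r = 0.948), FLC3 (0.940), RVB1 (0.936), RIF1 (0.935) and YGR054W (0.935), of 5904 compared as the log2 of the level plus 1, a description over libraries that share experiments and that include the heat experiment and the hairpin reporter strains. Among the members themselves, GCD6 followed the mean of the other 7 most closely (r = 0.932), then GCD2 (0.856) and SUI2 (0.819), and GCN3 (0.470) and SUI3 (0.363) least.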

How the data were processed

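The authors quantified each library with kallisto 0.48.0 against R64 transcripts, and deposited estimated counts and TPM. TPM was rescaled to nuclear mRNA, which holds 70.6% to 89.1% of the Total. In Sed-seq the authors fitted how supernatant and pellet mix into Total with a Stan model and deposited pSup, a fraction. In Polysome-seq the authors scaled counts to an S. pombe spike-in, and deposited that signal and Occ, a fraction. Fold changes the authors deposited were not used.

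The 8 genes, the pathway list and the tests were chosen with earlier results of these data known. Named genes are the 8 members, pathway genes the text turns on and the 5 closest profiles.

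Estimated counts were rounded and tested in R 4.3.3 with edgeR 4.0.16 (TMM, filterByExpr, quasi-likelihood, all groups of an experiment in 1 fit). The natural-log odds of pSup, as such or centred in a window of 0.02 of the log-length range, were tested with limma 3.58.1 (trend) for mRNAs with at least 20 counts over supernatant and pellet. P-values were 2-sided and adjusted over all mRNAs, at 0.05. Alternatives were DESeq2 1.42.0 and its size factors, library totals (added after seeing the data), a replicate block, no count filter or 100 counts, bins of 100 transcripts, open reading frame length, limma without trend, Mono counted as bound, only the groups compared, and each lysate left out. Replicate numbers were taken to pair lysates where an experiment had 3 or more pairs and each correlated above 0.1, which held for Total counts of the heat (3 pairs, lowest r = 0.134) and CHX (6 pairs, lowest r = 0.339) experiments. The scripts were tested on simulated data. Counts limit precision: a member had as few as 45 in a Free library. Groups with 1 lysate (CHX at 42°C, the hairpin strains) entered no comparison, but are among the 77 libraries of the profile correlations. Figures were drawn with matplotlib 3.10.9.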

Additional observations from a re-analysis of the deposited data

Results flagged for a closer look

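In the eIF3b strain, the effect of heat on length-centred pSup differed between depleted and mock cells for 3 of the 8 mRNAs (limma, interaction), 2 at 42°C beside 19.3% of all mRNAs and 3 at 46°C beside 31.5%. For GCD11 the difference was 0.5723 at 42°C (adjusted p = 0.0035) and 0.7291 at 46°C (adjusted p = 3.1e-04), with the depleted lysates rising in heat on this scale and the mock lysates lower at 46°C. For GCD7 it was 0.4170 at 42°C (adjusted p = 0.013) and 0.3786 at 46°C (adjusted p = 0.011). For SUI2 it was -0.3193 at 46°C (adjusted p = 0.040). Each group had 2 lysates.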

How the results depend on the processing

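Each test was repeated under the alternatives listed under processing. Scaling by library totals, added after seeing the data, reversed 17 single abundance changes: in 0.5% azide SUI2 (0.0984), GCD2 (0.2123) and GCD6 (0.0202), in DTT GCD2 (0.0153), in CHX at 30°C SUI2 (0.1389), GCD1 (0.2503) and GCD6 (0.2344), in CHX at 46°C SUI2 (0.1316), GCD1 (0.1459) and GCD6 (0.1747), on eIF3b depletion GCD1 (0.1007), GCD2 (0.1463), GCD6 (0.0090), GCD7 (0.2031) and GCN3 (0.6186), and on eIF4E depletion GCD2 (0.0203) and GCD6 (0.1704). Another 14 lost their call and 60 kept it. The median of all mRNAs moved by more than 0.1 in most of these comparisons, to 0.92 on eIF3b depletion, 0.59 in CHX and 0.42 in 0.5% azide.

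In the counts of members called, library totals gave 1 for heat at 42°C in Sed-seq (beside 8% of all mRNAs lower) and 1 for 46°C with the spike-in (8.41% higher). They gave 5 for 10% ethanol (15.8% higher), 2 for 15% ethanol (19.2% lower) and 5 for eIF3b depletion (16.6% lower and 70.97% higher). They gave 7 for Polysome-seq in ethanol (41.9% lower) and 4 for ribosome association at 42°C (30.6% lower). Fitting only the groups compared gave 1 for abundance at 42°C in the heat experiment, 3 for abundance and 7 for pSup on eIF4E depletion and, after length centring, 0 for 46°C in the heat experiment and the CHX mock, 0 for 42°C and 46°C in both degron mocks, 0 for eIF4E depletion at 30°C, 2 for 42°C in eIF3b-depleted cells and 1 in eIF4E-depleted cells. DESeq2 gave 3 for eIF4E depletion and 0 for Polysome-seq abundance in azide. A minimum of 100 counts gave 1 for centred pSup in 10% ethanol, 1 for pSup in CHX, 3 for centred pSup at 46°C in the CHX mock and 5 in the eIF4E mock. Limma without trend gave 0 for centred pSup at 46°C in the heat experiment and the CHX mock, bins of 100 transcripts gave 0 and 2, and Mono counted as bound gave 0 for association at 42°C. Without the count filter, with DESeq2 size factors and with open reading frame length no count of calls moved by over 1.5 times.

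With the replicate number as a block, centred pSup gave 0 calls at 46°C in the heat experiment, 4 in 0.8% azide, 2 in 15% ethanol, 3 at 46°C in the CHX mock and 1 for the interaction of eIF4E depletion and 46°C. pSup gave 0 in 7.5% ethanol and 2 in CHX at 30°C, abundance gave 2 in 0.8% azide, and association gave 2 in azide. By the rule under processing the numbers were not taken to pair lysates in these readouts. Both azide experiments at 0.8% and those at 7.5% and 15% ethanol have 1 pair each, which that rule cannot judge. In 0.8% azide Sed-seq it correlated at 0.224 for Total counts, 0.227 for pSup and 0.216 for centred pSup. It was at -0.01 for pSup in 7.5% ethanol, -0.06 for centred pSup in 15% ethanol and -0.02 for Total counts in Polysome-seq azide. In the paired abundance fits, the block left the heat experiment at 0 calls and gave 6 in place of 5 for CHX at 30°C and at 46°C.

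With each lysate left out in turn, calls of abundance ranged from 0 to 1 at 46°C in the heat experiment, 1 to 2 with the spike-in, 5 to 7 and 0 to 1 in 0.5% and 0.8% azide, 7 to 8 and 2 to 5 in 5% and 7.5% ethanol, 2 to 3 in DTT, 3 to 4 and 4 to 5 in CHX at 30°C and 46°C, 7 to 8 on eIF3b depletion, 3 to 3 on eIF4E depletion, 1 to 6 at 46°C in Polysome-seq and 0 to 0 in Polysome-seq azide. Calls of pSup ranged from 6 to 7 and 4 to 8 in 0.5% and 0.8% azide, 6 to 8 and 0 to 3 in 10% and 7.5% ethanol, 0 to 1 in DTT and 4 to 5 in CHX at 46°C. Calls of centred pSup ranged from 0 to 2 at 46°C in the heat experiment, 1 to 4 with the spike-in, 0 to 0 and 0 to 3 in 0.5% and 0.8% azide, 2 to 3 and 1 to 4 in 7.5% and 15% ethanol, 0 to 2 at 46°C in the CHX mock, 3 to 6 on eIF3b depletion, 1 to 2 and 4 to 5 at 42°C and 46°C in depleted cells, 0 to 1 and 2 to 4 in their mock, 1 to 2 and 2 to 3 for its interactions, 0 to 1 on eIF4E depletion, 1 to 2 and 2 to 3 at 42°C and 46°C in depleted cells, and 0 to 0 and 1 to 2 in their mock. Association ranged from 0 to 1 at 42°C and 3 to 7 at 46°C.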
